A study of Mus musculus with 12 samples.

Results

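The 10 genes described here encode glucose uptake, early and late glycolytic steps and lactate formation in the mouse retina: *Slc2a1*, *Hk1*, *Hk2*, *Pfkl*, *Pfkm*, *Aldoa*, *Aldoc*, *Eno2*, *Ldha* and *Ldhb*. They were chosen by symbol, and each matched exactly 1 of the 37991 genes in the expression tables. Retinas came from male mice aged 8 weeks in 4 classes, each with 3 libraries, and every library was a pool of 6 to 8 retinas. F0 C57BL/6J and F0 Cast/EiJ are the inbred parental strains, the second of them wild-derived. F1 B6xCast had a C57BL/6J father and a Cast/EiJ mother, and F1 CastxB6 had the parents the other way round, so the 2 hybrids carry the same autosomal genotype. Because each F1 library was split by allele, the design asks for each gene whether the strains differ, whether the alleles differ inside 1 nucleus, whether those differences match, and whether the parent that transmits an allele matters.

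In glycolysis, glucose enters through a transporter, is trapped by hexokinase, is committed by phosphofructokinase, is split by aldolase and passes through enolase before pyruvate is formed. Lactate dehydrogenase then interconverts pyruvate and lactate. The retina is known for releasing much lactate even when oxygen is present, and photoreceptors are its main glucose consumers. Most steps are catalysed by isozymes from separate genes with different tissue distributions, so the balance between paired isozyme genes was also measured.

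The genes lie on 6 autosomes in build NCBI37. *Hk1* (10:61731603-61842656) and *Pfkl* (10:77449692-77472828) are on the minus strand of chromosome 10. *Hk2* (6:82675019-82724448), *Eno2* (6:124710071-124719691) and *Ldhb* (6:142438769-142456477) are on the minus strand of chromosome 6. *Ldha* (7:54096845-54110997, plus) and *Aldoa* (7:133938748-133944265, minus) are on chromosome 7. *Pfkm* (15:97923020-97962878), *Aldoc* (11:78136470-78141283) and *Slc2a1* (4:118781316-118809935) are on plus strands. Of the 10, 4 overlap another annotated gene. *Hk1*, *Hk2* and *Slc2a1* overlap non-coding genes listed at no more than 40.6 count equivalents in any library, and *Pfkm* shares 817 bases with *Senp1* on the opposite strand, which was listed at 345 to 441. The libraries did not keep strand, so reads from overlapping parts cannot be told apart.

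The promoter windows of *Aldoc*, *Eno2*, *Pfkl* and *Ldha* are printed because these 4 genes had the largest allelic log2 differences of the 10 by size in count equivalents. Each runs 5′ to 3′ over 300 bases, 250 before the RefSeq start and 50 after it, and is the C57BL/6J reference sequence of GRCm38.p6, a later build than that of the expression tables. Capitals mark ACGTG or GCGTG, the core letters bound by hypoxia-inducible factors, and TAATCC, a core bound by the photoreceptor factor CRX, on either strand. The windows are chr11:78322823-78323122, plus strand (*Aldoc*), chr6:124769624-124769923, minus strand (*Eno2*), chr10:78009758-78010057, minus strand (*Pfkl*) and chr7:46845554-46845853, plus strand (*Ldha*).
Aldoc: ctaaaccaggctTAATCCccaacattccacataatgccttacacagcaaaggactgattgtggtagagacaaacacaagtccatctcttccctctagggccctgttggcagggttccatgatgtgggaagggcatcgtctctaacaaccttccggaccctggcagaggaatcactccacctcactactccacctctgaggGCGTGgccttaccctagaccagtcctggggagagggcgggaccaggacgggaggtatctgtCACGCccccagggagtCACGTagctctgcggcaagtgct
Eno2: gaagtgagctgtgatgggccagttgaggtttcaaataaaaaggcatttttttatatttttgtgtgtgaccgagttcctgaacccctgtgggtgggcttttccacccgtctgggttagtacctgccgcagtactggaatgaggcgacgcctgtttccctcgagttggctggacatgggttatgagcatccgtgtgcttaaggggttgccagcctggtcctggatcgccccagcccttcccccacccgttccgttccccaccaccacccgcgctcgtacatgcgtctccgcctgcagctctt
Pfkl: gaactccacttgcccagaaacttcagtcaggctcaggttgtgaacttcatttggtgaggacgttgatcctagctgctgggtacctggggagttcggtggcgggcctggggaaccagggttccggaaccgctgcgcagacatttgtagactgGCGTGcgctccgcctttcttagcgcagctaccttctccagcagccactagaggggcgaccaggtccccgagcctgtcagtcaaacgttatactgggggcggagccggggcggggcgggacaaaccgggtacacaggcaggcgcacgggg
Ldha: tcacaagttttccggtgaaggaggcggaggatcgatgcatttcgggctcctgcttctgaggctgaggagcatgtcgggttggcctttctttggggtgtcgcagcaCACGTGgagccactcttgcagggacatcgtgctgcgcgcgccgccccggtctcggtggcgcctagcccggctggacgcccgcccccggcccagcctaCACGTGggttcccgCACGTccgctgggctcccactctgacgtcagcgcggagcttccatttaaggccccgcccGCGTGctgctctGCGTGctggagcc
Of the printed windows, that of *Aldoc* holds both kinds of letters and that of *Eno2* holds neither. Those of *Ldha* and *Pfkl* hold only the hypoxia core. *Aldoc* and *Ldha* each have a second RefSeq window that is not printed. The second *Ldha* window holds TAATCC and the hypoxia core, and the second *Aldoc* window holds only the hypoxia core. Over all 32851 RefSeq promoter windows, 43.8% held ACGTG or GCGTG and 7.06% held TAATCC. Of the 18 windows of the 10 genes, 14 held the hypoxia core and 3 held TAATCC. Some windows of *Aldoa* and of *Pfkm* overlap and share a site, so the 14 are not separate matches. CACGTG, held by the printed *Ldha* window and by 7.15% of all windows, contains ACGTG by its own letters. A match is a description of letters and not a measured binding site.

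Each library held 8158534 to 12363291 unique hits, the read pairs that MMSEQ could give to 1 gene, or in F1 libraries to 1 allele of 1 gene. Expression is given in count equivalents, which the authors normalised between libraries, and per transcript length in units close to FPKM. The 10 genes took 0.645% to 0.842% of all count equivalents in a library. No gene had fewer than 422 unique hits in any library or allele. Replicate 1 of F0 C57BL/6J, F0 Cast/EiJ and F1 B6xCast stood apart from the other replicates of its class. The chi-square per degree of freedom of unique hits was 5.71 to 12.5 in pairs that included one of those libraries and 1.39 to 3.20 in all other pairs, so no replicate pair agreed within sampling noise. Rod markers summed to 17726 to 18040 in FPKM-like units over 10 genes in F0 C57BL/6J and to 18969 to 19846 in F0 Cast/EiJ, with 2 of 10 called higher in Cast/EiJ. Cone markers summed to 435 to 510 over 8 genes and to 319 to 377, with 1 of 6 tested called higher and 3 lower. Ganglion cell markers summed to 329 to 365 over 8 genes and to 245 to 265, with 4 of 8 called lower. Mueller glia markers summed to 1164 to 1398 and 1054 to 1213, with 1 of 8 called higher and 3 lower. Amacrine markers summed to 309 to 357 and 358 to 381, with 3 of 8 called higher. The smaller sums were also lower in F0 Cast/EiJ than in F0 C57BL/6J without overlap for blood (76.0 to 115 and 35.5 to 58.0), retinal pigment epithelium (12.4 to 14.2 and 4.16 to 5.51), microglia (5.16 to 5.75 and 2.30 to 3.03) and astrocytes (10.6 to 11.2 and 6.98 to 9.54). The part of these cell types in the strain differences below was not tested, and in bulk retina fewer cells of a type cannot be told apart from less RNA per cell.

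*Aldoa* was by far the most abundant of the 10 per transcript length, and *Pfkm* the least. Taking for each F1 library the mean of its alleles, the median over 12 libraries was 1103 FPKM-like units for *Aldoa* and 463 for *Ldha*. *Hk1* followed at 299, *Aldoc* at 276 and *Eno2* at 211, and over the 12 libraries *Aldoc* overlapped both of the others. *Hk2* had a median of 123, *Pfkl* of 98.1 and *Ldhb* of 83.5, and the ranges of neighbours in this trio overlapped. *Slc2a1* stood at 54.8, with a range that overlapped that of *Ldhb*, and *Pfkm* at 37.5. By this measure *Aldoa* ranked at place 19 among all 37991 genes and *Pfkm* at place 1316. The order of *Hk1* and *Aldoc* differed between the strains, with *Hk1* above *Aldoc* in F0 C57BL/6J without overlap and their ranges overlapping in F0 Cast/EiJ.

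**Figure D1:**
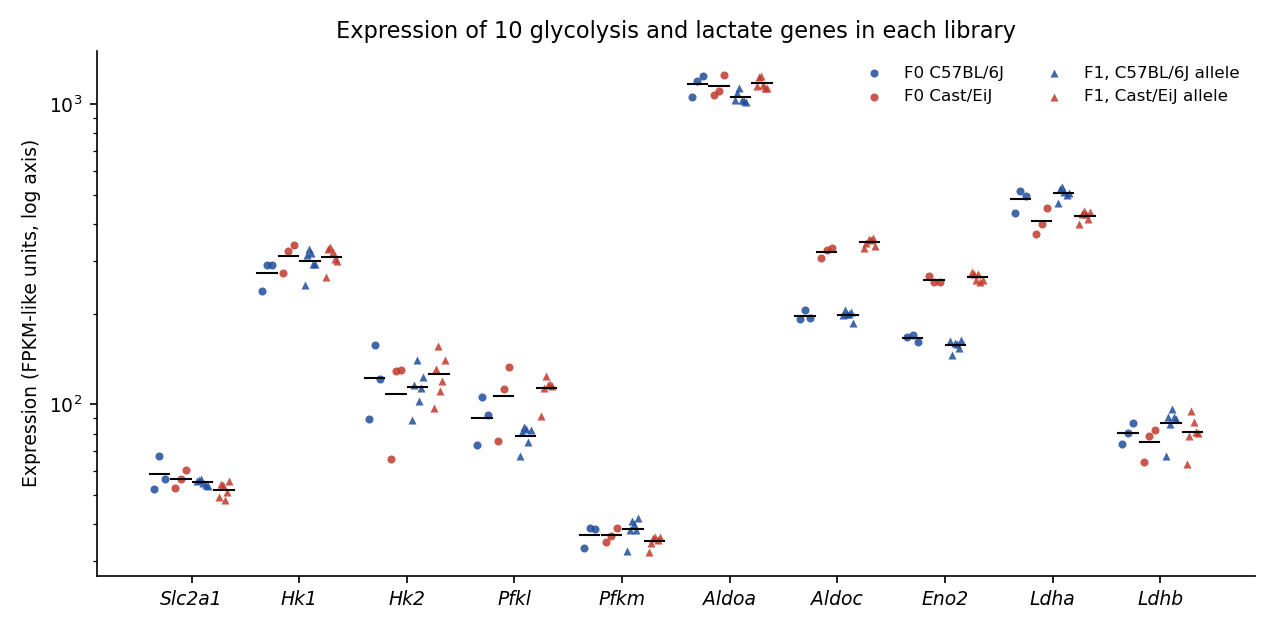
Expression of the 10 genes in FPKM-like units on a log axis, with 1 point per F0 library (circles) or F1 allele (triangles) and a bar at each group mean. Cast/EiJ values of *Aldoc* and *Eno2* lie above all C57BL/6J values in both generations, while the *Hk2* values of the groups overlap.

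Between the F0 strains, 2 of the 10 genes differed and both were higher in Cast/EiJ. Over all 14452 autosomal genes tested, 33.8% were called at an adjusted p under 0.05 by limma, 17.2% higher and 16.6% lower in Cast/EiJ. With only 10 genes, 2 called is near that background. Between the alleles of the F1 hybrids, 6 of the 10 genes differed, 4 with the Cast/EiJ allele higher and 2 with the C57BL/6J allele higher. Of all 13414 genes tested, 47.0% were called, 23.5% in each direction, so 6 of 10 is near the background. With unique hits in edgeR all 10 were called, against 55.7% of all genes tested. The median log2 difference of the 10 was -0.01 between strains and 0.08 between alleles, against 0.03 and 0.00 over all genes tested. *Aldoc* and *Eno2* were called in both with the same sign, which held for 22.2% of the genes tested in both.

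**Figure D2:**
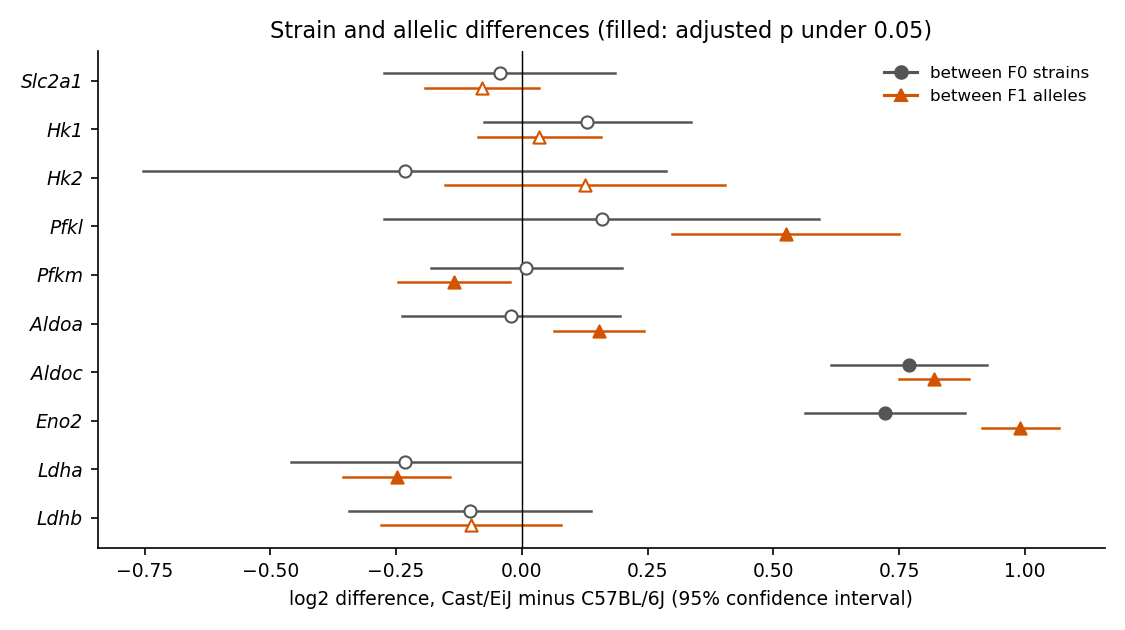
Log2 difference, Cast/EiJ minus C57BL/6J, between the F0 strains (grey circles) and between the F1 alleles (orange triangles), with 95% confidence intervals from limma. Filled symbols have an adjusted p under 0.05: *Aldoc* and *Eno2* in both, and *Pfkl*, *Pfkm*, *Aldoa* and *Ldha* between alleles.

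*Slc2a1* encodes GLUT1, the facilitative transporter that carries glucose into the retina. It was measured at 2520, 3250 and 2710 count equivalents in F0 C57BL/6J and 2550, 2690 and 2950 in F0 Cast/EiJ. The strains overlapped, with a log2 difference of -0.04 ± 0.10 (SE) and an adjusted p of 0.77 in limma. Its F1 alleles had medians of 2630 for C57BL/6J and 2505 for Cast/EiJ, and the Cast/EiJ allele was the higher in 1 of 6 libraries. The allelic log2 difference of -0.08 had a 95% interval of -0.19 to 0.03 and an adjusted p of 0.24 in limma. With unique hits in edgeR the adjusted p was 0.028.

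The 2 hexokinase genes did not pass in the limma model used for either comparison, and the *Hk2* alleles passed in a second one given below. *Hk1* encodes the housekeeping and neuronal hexokinase and was measured at 13100, 15300 and 15200 count equivalents in F0 C57BL/6J and 14700, 15800 and 17200 in F0 Cast/EiJ. Its log2 difference was 0.13 ± 0.09 (SE) between strains and 0.03 ± 0.06 between alleles, with adjusted p of 0.30 and 0.66 in limma. With unique hits in edgeR the *Hk1* alleles had an adjusted p of 0.014, although each allele had more hits in 3 of 6 libraries. *Hk2* encodes the hexokinase typical of tissues with high aerobic glycolysis, photoreceptors among them, and ranged from 6830 to 14500 across the F0 libraries. It was measured at 9330, 14500 and 11900 in F0 C57BL/6J and at 6830, 12100 and 12000 in F0 Cast/EiJ. The lowest library of each strain was replicate 1, and the strain difference of -0.23 ± 0.23 (SE) had an adjusted p of 0.46 in limma. Without Cast/EiJ replicate 1 that difference was 0.04.

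Inside the hybrids the *Hk2* alleles of a library lay close together while the libraries differed. The C57BL/6J allele ran from 9120 to 12900 with a median of 10850, and the Cast/EiJ allele from 10100 to 14200 with a median of 11650. The Cast/EiJ allele was higher in 6 of 6 libraries, by a log2 ratio of 0.08 to 0.16, and 42.0% of all genes tested had the same allele higher in all 6. The model with F0 and F1 libraries did not call it, at 0.12 ± 0.13 (SE) and an adjusted p of 0.47 in limma. With each F1 library as a fixed block the adjusted p was 6.0e-04 in limma, and with unique hits in edgeR it was 5.3e-19.

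Of the phosphofructokinase genes, *Pfkl* showed a clear allelic difference. *Pfkl* encodes the liver-type subunit, and its Cast/EiJ allele was 1.44-fold higher, with a 95% interval of 1.23 to 1.68. The C57BL/6J allele was listed at 4440 to 5680 count equivalents with a median of 5485, and the Cast/EiJ allele at 6230 to 8540 with a median of 7825. The groups of alleles did not overlap, and the log2 ratio lay between 0.49 and 0.59 in the 6 libraries. The adjusted p was 6.5e-04 in limma. Unique hits gave the Cast/EiJ allele 57.9% to 59.7% of the allele-specific reads in each library.

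The F0 strains did not show that *Pfkl* difference above their spread. F0 C57BL/6J had 4920, 7350 and 6490 count equivalents and F0 Cast/EiJ had 5290, 7070 and 8730. The strains overlapped, replicate 1 was lowest in each, and the log2 difference was 0.16 ± 0.19 (SE, adjusted p = 0.55 in limma). The interval of -0.27 to 0.59 includes the allelic value of 0.52. The test of the strain difference against the allelic difference gave -0.37 with an adjusted p of 0.23 in limma, so the 2 were not shown to differ.

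*Pfkm* encodes the muscle-type subunit and leaned the other way. Its F0 values were 1790, 2100 and 2070 count equivalents in C57BL/6J and 1880, 1990 and 2120 in Cast/EiJ, with a log2 difference of 0.01. In the F1 the C57BL/6J allele had a median of 2075 and the Cast/EiJ allele of 1885, and the log2 ratio ran from -0.21 to 0.00. The allelic difference of -0.13 ± 0.05 (SE) was called at an adjusted p of 0.046 in limma. It missed the threshold on the FPKM-like scale (0.063) and with TMM factors (0.069), and in 7 of the 12 fits that left out a library. The libraries left out in those 7 were replicate 3 of F0 C57BL/6J, replicate 2 of F0 Cast/EiJ, replicates 2 and 3 of F1 B6xCast and all 3 of F1 CastxB6, and the highest adjusted p was 0.12.

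*Aldoc* was called higher in Cast/EiJ both between strains and between alleles. It encodes aldolase C, the brain-type isozyme found in neurons and glia. F0 C57BL/6J had 5560, 5980 and 5970 count equivalents and F0 Cast/EiJ had 9550, 9820 and 10500. The strains did not overlap, which held for 48.0% of all genes tested, and Cast/EiJ was 1.71-fold higher with a 95% interval of 1.53 to 1.90 and an adjusted p of 4.7e-05 in limma. The F1 alleles were listed at 5390 to 5900 for C57BL/6J and 9620 to 10400 for Cast/EiJ. The Cast/EiJ allele was 1.76-fold higher, with a 95% interval of 1.68 to 1.85 and an adjusted p of 3.4e-12 in limma. The allelic log2 ratio lay between 0.79 and 0.84 in the 6 libraries, and the Cast/EiJ allele took 62.7% to 63.7% of the allele-specific hits. The strain difference minus the allelic difference was -0.05, with a 95% interval of -0.18 to 0.08.

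*Aldoa* encodes the ubiquitous aldolase and differed far less. Its F0 values were 28100, 31700 and 32600 count equivalents in C57BL/6J and 28400, 29300 and 33400 in Cast/EiJ, with a log2 difference of -0.02 ± 0.10 (SE). The F1 alleles had medians of 26800 for C57BL/6J and 30000 for Cast/EiJ without overlap, and the log2 ratio lay between 0.13 and 0.17 in the 6 libraries. The Cast/EiJ allele was 1.11-fold higher, with a 95% interval of 1.05 to 1.18 and an adjusted p of 0.0067 in limma. On the FPKM-like scale the adjusted p was 0.051.

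*Eno2* encodes the neuron-specific enolase and had the largest allelic difference of the 10 in count equivalents and unique hits, while *Aldoc* was ahead of it on the FPKM-like scale (0.80 against 0.76 in log2). F0 C57BL/6J had 7170, 6770 and 6600 count equivalents and F0 Cast/EiJ had 12000, 10800 and 11100. The strains did not overlap, and Cast/EiJ was 1.65-fold higher with a 95% interval of 1.48 to 1.84 and an adjusted p of 8.7e-05 in limma. The F1 C57BL/6J allele ran from 5440 to 6590 with a median of 5790, and the Cast/EiJ allele from 11300 to 12300 with a median of 11700. The Cast/EiJ allele was 1.99-fold higher, with a 95% interval of 1.88 to 2.10 and an adjusted p of 8.9e-13 in limma. The log2 ratio lay between 0.90 and 1.08 in the 6 libraries.

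For *Eno2* the allelic difference was larger than the strain difference on the count equivalent scale. The strain difference minus the allelic difference was -0.27 ± 0.07 (SE), with an adjusted p of 0.012 in limma, and it was the only one of the 10 called there. Of all genes tested, 14.0% were called in that comparison, 5.64% with a positive and 8.31% with a negative value. The call ended on the other measures, at -0.12 with an adjusted p of 0.35 on the FPKM-like scale and at -0.18 with an adjusted p of 0.13 with unique hits in edgeR. The *Eno2* alleles had 0.229 to 0.364 unique hits per count equivalent, against 0.331 to 0.482 over all genes summed in the same libraries. Such low values were not particular to *Eno2*, with 0.198 to 0.308 for *Slc2a1*, 0.270 to 0.414 for *Ldhb* and 0.287 to 0.404 for *Aldoa*. In F0 libraries the values were 0.648 to 0.939 for *Eno2* and 0.613 to 0.896 over all genes. The part of allele-specific read assignment in the difference was not tested. The allelic log2 difference itself was 0.76 on the FPKM-like scale and 0.87 in edgeR.

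*Ldha* encodes the LDH subunit that favours forming lactate from pyruvate, and its C57BL/6J allele was the higher in 6 of 6 libraries. The C57BL/6J allele ran from 13000 to 14600 count equivalents with a median of 14050, and the Cast/EiJ allele from 11000 to 12100 with a median of 12000. The alleles did not overlap, and the Cast/EiJ allele was at 0.842 times the C57BL/6J level with a 95% interval of 0.782 to 0.906 and an adjusted p of 6.4e-04 in limma. F0 C57BL/6J had 12200, 14600 and 13900 and F0 Cast/EiJ had 10400, 11400 and 12900. The strains overlapped, and the log2 difference of -0.23 ± 0.10 (SE) had an adjusted p of 0.11 in limma, close to the allelic value of -0.25. Of the 6 fits that left out an F0 library, 1 called the strain difference. It was the fit without F0 C57BL/6J replicate 1, at -0.31 with an adjusted p of 0.042 in limma. Over all 14 alternatives the strain difference ran from -0.31 to -0.16, and 2 of them called it.

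*Ldhb* encodes the subunit typical of lactate-consuming tissue and did not pass either limma test. Its F0 values were 1700, 1870 and 1980 count equivalents in C57BL/6J and 1470, 1810 and 1910 in Cast/EiJ. The log2 difference was -0.10 ± 0.11 (SE) between strains and -0.10 ± 0.09 between alleles, with adjusted p of 0.49 and 0.35 in limma, and unique hits in edgeR gave an adjusted p of 0.0014 between alleles. The C57BL/6J allele was higher in 5 of 6 libraries, and F1 B6xCast replicate 3 went the other way, at a log2 ratio of 0.15.

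**Figure D3:**
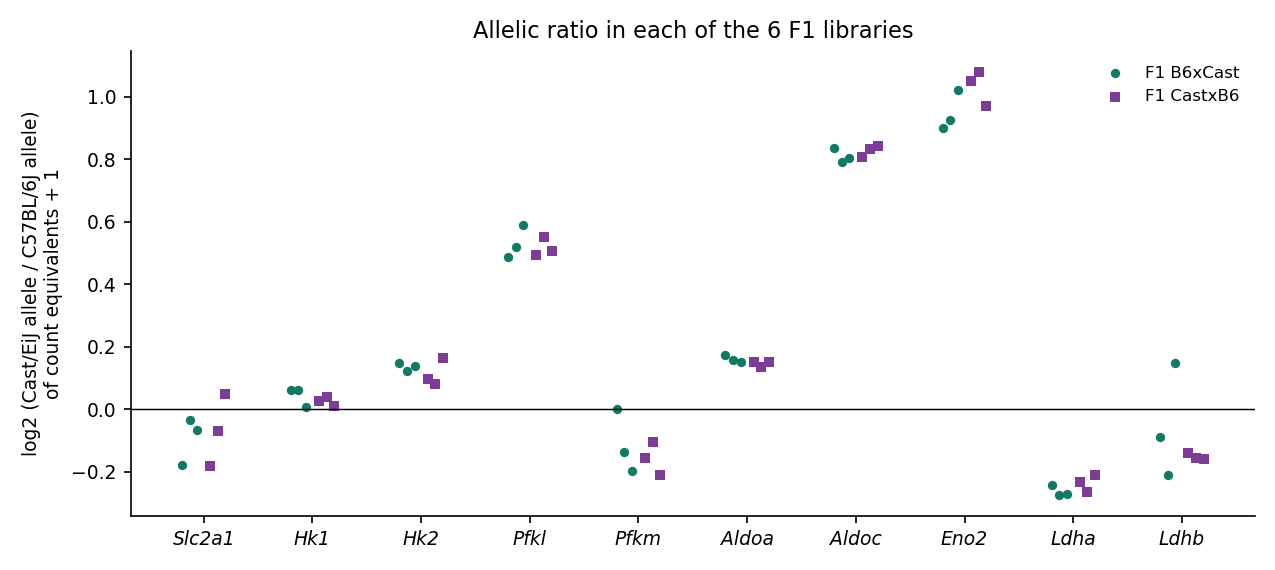
Allelic log2 ratio (Cast/EiJ over C57BL/6J) of each F1 library, by cross (circles F1 B6xCast, squares F1 CastxB6). *Eno2*, *Aldoc* and *Pfkl* lie at 0.49 or above in all 6 libraries, *Ldha* lies at -0.21 or below, and the 2 crosses overlap for every gene.

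No difference between the reciprocal crosses was detected for these genes. The allelic ratio differed between the crosses for 0 of the 10 in limma and 0 in edgeR, and 0 had an unadjusted p under 0.05 in either, against 0.492% of all genes called, 0.179% with a positive and 0.313% with a negative value. The fitted value is how far each cross lies from the mean of both. Among the 6 genes with an allelic call it was farthest from 0 for *Eno2*, at -0.04 with a 95% interval of -0.12 to 0.03, and the adjusted p in limma was 0.9999 for all 10. For *Aldoc* the allelic log2 difference was 0.81 in F1 B6xCast and 0.83 in F1 CastxB6, and for *Pfkl* it was 0.53 and 0.52.

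The same gene of each isozyme pair was the more abundant in every library and allele. *Ldha* exceeded *Ldhb* by 4.61 to 6.95 times per transcript length, so that *Ldha* made up 82.2% to 87.4% of their sum. *Hk2* stood at 0.241 to 0.540 times *Hk1*, *Pfkm* at 0.287 to 0.510 times *Pfkl*, and *Aldoc* at 0.157 to 0.317 times *Aldoa*. These ratios compare 2 genes within a library, so a factor common to both cancels.

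Between the F0 strains the exact permutation test of 3 against 3 cannot go below a two-sided p of 0.10, and only the aldolases reached that. *Aldoc* was at 0.181, 0.173 and 0.157 times *Aldoa* in C57BL/6J and at 0.287, 0.294 and 0.265 in Cast/EiJ, without overlap. The log2 difference was 0.73 ± 0.07 (SE). The *Pfkm* to *Pfkl* ratio was 0.453, 0.366 and 0.415 in C57BL/6J and 0.464, 0.325 and 0.292 in Cast/EiJ, with overlap and an exact permutation p of 0.40. *Hk2* to *Hk1* gave an exact permutation p of 0.30 and *Ldha* to *Ldhb* of 0.20, and after adjustment over the 4 pairs every pair had a p of 0.40.

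Between the F1 alleles all 4 ratios moved 1 way in 6 of 6 libraries. That gives 0.031 in the exact sign-flip permutation test, the smallest p that 6 libraries allow, before and after adjustment over the 4 pairs. Each difference is the allelic log2 ratio of 1 gene minus that of the other, so it restates values of single genes. Of single genes tested, 42.0% had the same allele higher in all 6 libraries, and no share over gene pairs was computed. The *Pfkm* to *Pfkl* ratio was lower on the Cast/EiJ allele by a log2 difference of -0.65 ± 0.05 (SE), with means of 0.479 and 0.314 for the C57BL/6J and Cast/EiJ alleles in F1 B6xCast and 0.500 and 0.309 in F1 CastxB6. The *Aldoc* to *Aldoa* ratio was higher on the Cast/EiJ allele by 0.65 ± 0.02 (SE). The *Ldha* to *Ldhb* ratio was lower by -0.15 ± 0.05 (SE), and the *Hk2* to *Hk1* ratio higher by 0.09 ± 0.02. Without F1 B6xCast replicate 3, the library whose *Ldhb* ratio went the other way, the *Ldha* to *Ldhb* difference fell to -0.10.

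**Figure D4:**
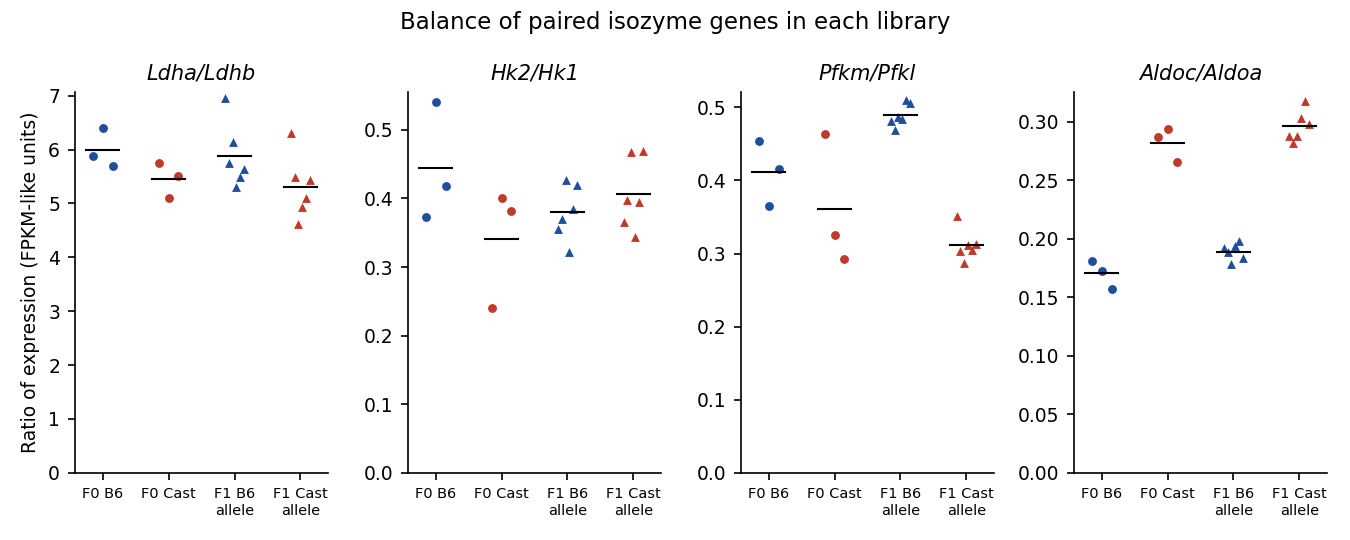
Ratio of paired isozyme genes per transcript length in each F0 library (circles) and F1 allele (triangles), blue for C57BL/6J and red for Cast/EiJ, with a bar at each mean and every axis starting at 0. The 6 alleles of each strain separate for *Pfkm* to *Pfkl* and *Aldoc* to *Aldoa* and overlap for the other pairs.

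Libraries of 1 class also differed, and most of the 10 genes did so together. As the deviation from the class mean in log2, replicate 1 of F0 C57BL/6J, F0 Cast/EiJ and F1 B6xCast was low for *Hk2* (-0.42, -0.65 and -0.36), *Pfkl* (-0.29, -0.47 and -0.23) and *Hk1* (-0.19, -0.19 and -0.23). *Eno2* was not low in these libraries, at 0.01, 0.04 and 0.04. The SD within classes was 0.32 for *Hk2*, more than in 92.7% of 14452 expressed genes, and 0.03 for *Eno2*, more than in 0.671%. Across the 12 deviations *Hk2* and *Pfkl* correlated at r = 0.950, *Hk1* and *Ldhb* at 0.955, and *Eno2* and *Ldhb* at -0.68. These values share libraries and normalisation and are given as a description. In the same 3 libraries several marker sums also deviated. Endothelium was at -0.25, -0.20 and -0.25, horizontal cells at -0.21, -0.14 and -0.12, Mueller glia at -0.16, -0.09 and -0.09, and bipolar cells at -0.13, -0.09 and -0.04. Cones deviated the other way, at 0.11, 0.12 and 0.11, and rods were at -0.01, -0.02 and -0.07. The part of these cell types was not tested. Without the 3 libraries, the same number of the 10 genes was called between strains (2) and between alleles (6), a setting chosen after seeing the data.

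**Figure D5:**
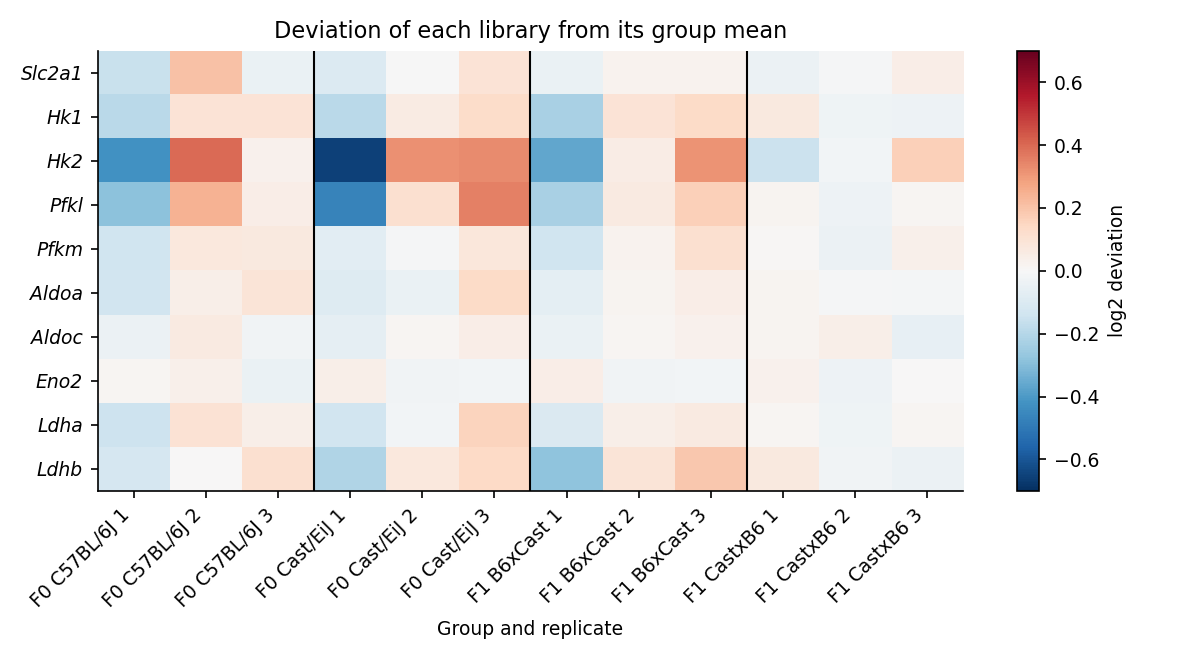
Log2 deviation of each library from the mean of its class for the 10 genes, with F1 libraries as the mean of their alleles. Replicate 1 of 3 classes is low for *Hk2*, down to -0.65, and for *Pfkl*, *Hk1* and *Ldhb*, while *Eno2* stays within 0.05 of 0.

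The rest of the pathway was read from a list of 48 further genes for glycolysis, monocarboxylate transport and pyruvate entry into mitochondria. Between the F0 strains 37 were tested and 10 were called, 3 higher and 7 lower in Cast/EiJ, against 33.8% of all genes tested, and the median log2 difference was -0.11 against 0.03 over all genes. Between alleles 34 were tested and 15 were called, 6 higher and 9 lower, against 47.0% of all genes tested, and the median log2 difference was -0.04 against 0.00 over all genes. For the strain difference minus the allelic difference 11 of 34 were called, 4 with a positive and 7 with a negative value, against 14.0% of all genes tested. Between the reciprocal crosses 0 of 34 were called in limma and 0 in edgeR, with an unadjusted p under 0.05 for 4 and 1.

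Among the further isozymes described here, *Hkdc1*, a hexokinase-like gene at low level, was the one called in both generations with the same sign. It was listed at 89.9, 112 and 82.7 count equivalents in F0 C57BL/6J and 199, 234 and 211 in F0 Cast/EiJ. Its Cast/EiJ level was 2.26-fold higher between strains and 1.71-fold between alleles, with adjusted p of 4.2e-04 and 2.5e-06 in limma. *Pfkp*, the platelet-type phosphofructokinase, had 6180 to 9870 count equivalents in F0 libraries, and its Cast/EiJ allele was at 0.869 times the C57BL/6J level (adjusted p = 0.0092 in limma). *Slc2a3*, the neuronal transporter GLUT3, had an allelic log2 difference of -0.45 (adjusted p = 5.1e-07 in limma) and a strain difference of 0.04 (adjusted p = 0.73 in limma). *Eno3*, the muscle enolase, was called in neither, with log2 differences of -0.11 and -0.40. *Hk3* and *Ldhc* stayed at or below 6.83 count equivalents in every library and allele.

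Some of the largest values of the list changed with the measure or stood beside a listed copy. *Eno1*, the ubiquitous enolase, was listed at 27800 to 32700 count equivalents in F0 C57BL/6J and 2430 to 2810 in F0 Cast/EiJ, while its copy *Gm5506* was at up to 5.26 and 14800 to 18100. In the F1 both *Eno1* alleles lay between 24500 and 30200 and *Gm5506* at no more than 0.202, so the fitted F0 log2 difference of -3.55 for *Eno1* is uncertain, and a split of reads between the genes was not tested. *Gapdh* had 41100 to 50800 in F0 C57BL/6J but only 267 to 293 unique hits there. Its log2 differences of -7.29 between strains and -4.50 between alleles were -1.07 and -1.92 with unique hits in edgeR, so their size is uncertain. *Pgam1* was 0.72-fold between strains and 1.52-fold between alleles, and its allelic log2 difference was 3.18 with unique hits in edgeR. Among copies of the 10 enzyme genes, those looked up took few reads. The aldolase copies *Aldoart1* and *Aldoart2* were at no more than 4.37 count equivalents and the LDH copies *Ldha-ps* and *Ldha-ps2* at no more than 8.03. Copies of the other enzyme genes were not looked up.

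*Emb*, a chaperone of monocarboxylate transporters, was lower in F0 Cast/EiJ by a log2 difference of -0.57 (adjusted p = 0.0029 in limma), and *Tigar* (9630033F20Rik in the tables), a fructose bisphosphatase-like regulator, by -0.55 (adjusted p = 5.4e-04 in limma). Between alleles *Pdhb*, a pyruvate dehydrogenase subunit, had the C57BL/6J allele higher in 6 of 6 libraries (-0.61, adjusted p = 1.0e-07 in limma). *Pfkfb4*, which controls a phosphofructokinase activator, had the Cast/EiJ allele higher in 6 of 6 (0.50, adjusted p = 1.1e-04 in limma). The X-linked *Pgk1*, left out of the fits, was listed almost only from the mother's allele, at 13900 to 19700 count equivalents from Cast/EiJ in F1 B6xCast and 16000 to 16400 from C57BL/6J in F1 CastxB6, with at most 25.2 from the father's.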

How the data were processed

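Retinal poly(A) RNA from 12 libraries was sequenced as paired 101-base reads, in 1 lane for all libraries and a second lane for F1 libraries only. The sources name Trim Galore 0.2.6, Bowtie 0.12.9 and MMSEQ, run on strain-specific (F0) or hybrid (F1) transcriptomes built on mm9/NCBI37. The count equivalents are a signal that the authors estimated and normalised, deposited with 3 digits. The authors also deposited MMSEQ estimates on a natural log scale, whose exponential served as FPKM-like expression. The posterior SD that the authors give for each estimate was 0.0058 to 0.049 for the 10 genes. Unique hits are a count the authors deposited without normalisation. A table of the authors' posterior probabilities and imprinting Bayes factors, and the 36 expression columns in it, were not used.

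F0 strains were compared with limma 3.58.1 (R 4.3.3, trend) on log2(count equivalents + 1) on autosomes, for genes reaching 10 count equivalents in 3 or more libraries. Alleles were fitted in 1 model with F0 strains, with library as a block (duplicateCorrelation, consensus correlation 0.1354). Genes whose allele-specific unique hits averaged 10 or more were kept. The same correlation served every gene, so intervals and p-values between alleles and between crosses also carry spread between libraries. For *Pfkl* the SE between alleles was 0.11 in this model, while its 6 paired log2 ratios had an SD of 0.038. Since lane number goes with generation, a lane effect and the F0 minus F1 comparison cannot be told apart. P-values were adjusted by Benjamini-Hochberg over all genes tested. Isozyme ratios were tested by exact permutation, two-sided. Scripts were tested on simulated data, where 69.5% of 2-fold changes were recovered for F0 over 14452 genes and 89% for alleles over 13414. Alternatives used edgeR 4.0.16, DESeq2 1.42.0, TMM factors, other pseudocounts, filters and scales, a replicate block and libraries left out. The text names all 10 genes, the 5 largest calls of the pathway list in each comparison whose count equivalents averaged 100 or more, further isozymes, X-linked genes, overlapping genes and copies, and some of these are not reported here. The genes and lists were chosen with earlier results of these data known. Whether the replicates came from separate litters is not given in the sources used here, so p-values measure the spread between these pools.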

Additional observations from a re-analysis of the deposited data

Results flagged for a closer look

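The *Ldhb* allelic log2 ratio in F1 B6xCast replicate 3 was 0.15, far from the other 5 F1 libraries, which lay between -0.21 and -0.09. The same library gave the *Ldha* to *Ldhb* ratio an allelic log2 difference of -0.41, against -0.14 to -0.06 in the others. These were 2 of 14 such checks, and chance alone marks about 1 in 20. Both flags rest on the same *Ldhb* values, so they are not separate. That library had 580 unique hits for the Cast/EiJ allele of *Ldhb* and 546 for the C57BL/6J allele.

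The F0 strain difference and the F1 allelic difference of *Eno2* differed by -0.27 on the log2 scale (adjusted p = 0.012 in limma). As given above, the call ended on the FPKM-like scale and with unique hits in edgeR. In the pathway list the same comparison gave -3.45 for *Eno1*, -2.80 for *Gapdh*, -1.08 for *Pgam1*, -0.49 for *Emb*, 0.48 for *Pdhb* and 0.49 for *Slc2a3*, with adjusted p of 5.3e-14, 6.1e-05, 5.3e-06, 0.0041, 0.0039 and 8.4e-04 in limma. These are the genes named elsewhere, of 11 called among 34, and the others lay between -0.49 and 0.39. With unique hits in edgeR the *Gapdh* strain difference (-1.07) was smaller in size than its allelic difference (-1.92), the reverse of the count equivalents. The limits given above for *Eno1* and *Pgam1* also hold here.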

How the results depend on the processing

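The calls for *Aldoc* and *Eno2* between strains and between alleles kept their direction and their side of the threshold under every alternative run. The allelic calls of *Pfkl* and *Ldha* had the same direction throughout. Among all genes, the F0 count was 3161 without a filter, and the count between crosses was 38 with library as a fixed block. TMM factors changed the F0 split from 2486 higher and 2401 lower to 1695 and 2940, with the median of all genes at -0.05 instead of 0.03. Leaving out 1 library gave 3258 to 4341 calls for F0, 5406 to 6342 for alleles, 1460 to 1777 for F0 minus F1 and 56 to 78 between crosses. Of the 10 enzymes, these fits called 2 to 3, 5 to 6, 1 to 2 and 0. *Aldoa* was the gene added to F0 minus F1, without F0 C57BL/6J replicate 1 or F0 Cast/EiJ replicate 3. Unique hits in edgeR called 10 enzymes between alleles, against 55.7% of all genes tested. For F0 minus F1 they called 0, and the FPKM-like scale also called 0 there.

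Several differences near 0 changed sign. *Pfkm* between strains was -0.013 in edgeR, -0.072 with TMM factors and -0.022 without the 3 libraries that stood apart, an alternative chosen after seeing the data. For F0 minus F1, *Ldha* was -0.021 in edgeR and -0.013 with TMM factors, and without the 3 libraries *Ldhb* was 0.042 and *Slc2a1* was -0.017. With 1 library left out, the strain difference ran from -0.40 to 0.040 for *Hk2*, from -0.012 to 0.35 for *Pfkl*, from -0.064 to 0.052 for *Pfkm*, from -0.092 to 0.025 for *Aldoa*, from -0.18 to 0.010 for *Ldhb* and from -0.12 to 0.060 for *Slc2a1*, and F0 minus F1 ran from -0.064 to 0.091 for *Ldha*, from -0.078 to 0.11 for *Ldhb* and from -0.043 to 0.14 for *Slc2a1*. The F1 isozyme differences lost their call with 5 or fewer libraries, where the adjusted exact permutation p cannot go below 0.0625. Those differences were -0.17 to -0.095 for *Ldha* to *Ldhb*, 0.082 to 0.11 for *Hk2* to *Hk1*, -0.69 to -0.63 for *Pfkm* to *Pfkl* and 0.64 to 0.66 for *Aldoc* to *Aldoa*. Without the 3 libraries they were -0.15, 0.11, -0.69 and 0.66.

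F0 libraries with the same replicate number deviated together weakly (r across genes of 0.326, 0.030 and 0.137), and not every library correlated best with its own number, so the numbers do not pair the samples. The replicate block called 6376 genes for F0 and 4 of the 10 enzymes, adding *Ldha* (adjusted p = 0.012 in limma) and *Hk2* (adjusted p = 0.043 in limma). Except where a setting itself removes genes or libraries, the cause was not tested.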
